A study of Mus musculus with 18 samples.

Results

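The 7 genes described here are B cell and immunoglobulin genes: Igkc, Ighm, Jchain, Cd79a, Cd79b, Ms4a1 and Mzb1. They were found by matching the Ensembl gene IDs of the count files to these symbols, and all 7 were present among 37620 gene IDs. The samples were bulk RNA of melanomas in C57BL/6 mice, each mouse bearing 1 subcutaneous tumour per hindlimb. The tumours grew from MO4 cells, B16F10 melanoma cells that express ovalbumin. IFN-alpha-pMC mice received cells derived from induced pluripotent stem cells and marked IFN-alpha beside the right tumour on days 5, 6 and 7 after the tumour cells. pMC mice received such cells without the IFN-alpha mark, and control mice received none. All tumours were taken on day 11, so each treatment has a right tumour, on the injected side, and a distant left tumour. Each of the 6 groups held 3 libraries, named here by their number in the sample titles. The labels do not give the age of the mice, do not say how the IFN-alpha cells were made, and do not say whether libraries of a group came from separate mice. Reported p-values therefore measure the spread between these samples, which may be partly technical.

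An antibody is built from heavy and light chains, and on a B cell it sits in the membrane as part of the B cell receptor. CD79a and CD79b, the products of Cd79a and Cd79b, pair up beside the receptor and carry its signal into the cell. When a B cell becomes a plasma cell it makes large amounts of secreted antibody, so immunoglobulin mRNA is abundant in each plasma cell, while surface genes such as Ms4a1 (CD20) are turned down. Jchain links IgM and IgA units into polymers, and Mzb1 is a chaperone of the endoplasmic reticulum that helps immunoglobulin chains to assemble. Jchain and Mzb1 are also made by plasmacytoid dendritic cells.

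Upstream sequence was printed for every member with a window in the promoter table used, whatever its change in level. The RefSeq promoter table (build GRCm38.p6) held windows for 2 of the 7 members, Jchain on the minus strand at chr5:88527898-88528147 and Cd79a on the plus strand at chr7:24897247-24897380. Both are given 5′ to 3′, and capitals mark a match to a searched motif. The Cd79a window was ended before the transcript start that GENCODE M21 gives on the same build.
Jchain: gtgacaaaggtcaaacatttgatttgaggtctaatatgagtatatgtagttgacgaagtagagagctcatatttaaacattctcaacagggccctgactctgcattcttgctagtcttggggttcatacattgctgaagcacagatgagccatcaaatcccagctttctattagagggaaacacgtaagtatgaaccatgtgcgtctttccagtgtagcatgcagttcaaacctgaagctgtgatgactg
Cd79a: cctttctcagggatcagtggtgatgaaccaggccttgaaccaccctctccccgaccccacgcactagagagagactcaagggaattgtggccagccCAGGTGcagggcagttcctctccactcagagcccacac
The motifs were searched on both strands over the 250 bases before each RefSeq start. They were the octamer ATTTGCAT, found in 1.6% of 32851 such windows, the EBF motif (TCCC, any 2 bases, GGGA), found in 0.779%, and the E box CACCTG, found in 17.2%. The single match in these 2 windows was an E box in Cd79a, on the reverse strand, at bases -154 to -149 from the RefSeq start.

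Library totals ran from 14.35 to 23.43 (median 18.85) in units of 1000000 counts, and a count of 0 in a library allows up to 0.128 to 0.209 CPM (counts divided by the library total and multiplied by 1000000). Such floors, and intervals of count ratios, cover counting error only. All 7 members passed the filter on low counts that left 14849 genes for testing. By rank correlation, 3 libraries were least like their own groups, namely IFN-alpha-pMC left 1, IFN-alpha-pMC right 3 and control right 3, and the counts of called members are given below with and without them.

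Igkc and Ighm, the constant regions of the kappa light chain and of the IgM heavy chain, held most of the members' counts. Over the 18 libraries Igkc had 4495 counts and Ighm 6069, against 917 for Jchain, 488 for Cd79b, 258 for Cd79a, 159 for Mzb1 and 84 for Ms4a1. Per kilobase of exon the median level over 18 libraries was 18.2 CPM for Igkc, 7.97 for Ighm, 0.89 for Jchain, 0.785 for Cd79b, 0.459 for Cd79a, 0.279 for Mzb1 and 0.0273 for Ms4a1. In this order only Ighm and Jchain did not overlap in their ranges over the libraries, since Ighm was at 5.85 or more CPM per kilobase and Jchain at 2.51 or less. Every other neighbouring pair overlapped. Ms4a1 had no count in 1 left pMC library and at most 13 counts in any library, so its values carry the largest counting error.

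**Figure D1:**
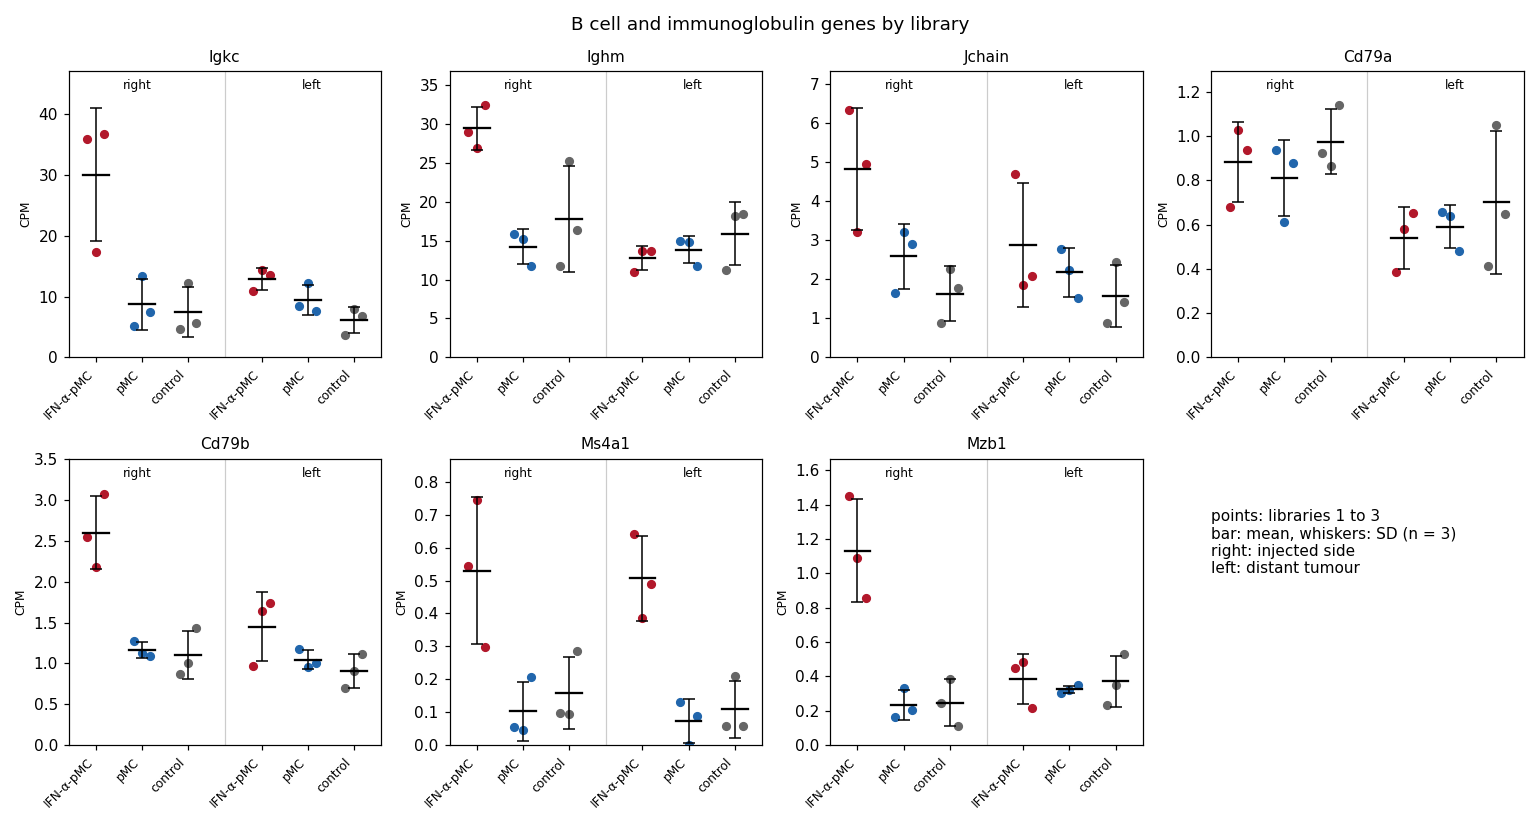
Level of each of the 7 genes in every library, in CPM on a linear axis starting at 0, by group with right tumours to the left in each panel. Points are libraries and bars with whiskers are the mean and SD of 3 libraries. Igkc and Mzb1 stand highest in right IFN-alpha-pMC tumours, Cd79a lies at 0.385 to 1.14 CPM in all groups, and Ms4a1 lies at 0.299 to 0.746 CPM in IFN-alpha-pMC tumours of both sides.

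Beside the injected IFN-alpha-pMC cells, 5 of the 7 genes were higher than in right control tumours (adjusted p under 0.05 in edgeR's quasi-likelihood test). They were Igkc, Ighm, Jchain, Cd79b and Mzb1, and none was lower. Of all genes tested, 8.78% were called higher in this comparison. The median log2 fold change was 1.59 over the 7 genes and -0.03 over all genes tested. In bulk RNA, more cells of a type and more RNA per cell cannot be told apart.

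The kappa light chain gene Igkc and the IgM heavy chain gene Ighm both rose, Igkc by the larger fold. Igkc was at 36.0, 17.4 and 36.7 CPM in right IFN-alpha-pMC libraries 1, 2 and 3, against 4.71, 12.2 and 5.6 CPM in right controls. The lowest IFN-alpha-pMC library, number 2, lay above the highest control, which was also number 2. Its log2 fold change was 2.03 ± 0.39 (SE, adjusted p = 0.00193). Ighm was at 29.0, 26.9 and 32.4 CPM in right IFN-alpha-pMC libraries, against 11.8, 25.2 and 16.4 CPM in right controls. The groups did not overlap, but control 2 came close to the lowest treated library. Ighm differed by 0.75 ± 0.23 on the log2 scale (adjusted p = 0.0399).

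The secretory pair Jchain and Mzb1 rose as well. Jchain was at 6.32, 3.21 and 4.95 CPM in right IFN-alpha-pMC tumours, against 0.873, 2.25 and 1.77 CPM in right controls, with no overlap. The log2 fold change of Jchain was 1.59 ± 0.47 (adjusted p = 0.0402). Mzb1 had the largest fold of the 7 members in this comparison, at 1.45, 1.09 and 0.854 CPM in right IFN-alpha-pMC tumours, against 0.243, 0.384 and 0.114 CPM in right controls. Every treated library was above every control, by 2.2 ± 0.44 on the log2 scale (adjusted p = 0.00258). This rests on 71 counts in the treated libraries and 15 in the controls. Mzb1 passed the filter on low counts through these treated libraries alone.

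Of the receptor's signalling partners, Cd79b rose and Cd79a did not pass the test. Cd79b was at 2.55, 2.18 and 3.07 CPM in right IFN-alpha-pMC tumours, against 0.873, 1.01 and 1.43 CPM in right controls, a log2 fold change of 1.24 ± 0.28 (adjusted p = 0.00645). Cd79a was at 0.682, 1.03 and 0.939 CPM in the same treated libraries, against 0.922, 0.863 and 1.14 CPM in controls, and the groups overlapped. Its log2 fold change was -0.13 with a 95% interval of -0.84 to 0.59 (adjusted p = 0.875), which leaves out the fitted change of Cd79b. Ms4a1, a B cell surface protein, had 12, 13 and 7 counts in treated libraries and 2, 2 and 5 counts in controls. Its summed counts per library total were 3.34 times those of controls (exact 95% interval 1.56 to 7.94), and the test across all genes gave 1.74 ± 0.66 (adjusted p = 0.106).

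On plain CPM, 6 of the 7 genes had all 3 right IFN-alpha-pMC libraries above all 3 right controls, and 13.5% of all genes tested did so. With library totals scaled by trimmed means, Ms4a1 overlapped. The number of called genes ran from 2 to 6 when single libraries were left out. Without right control 1, Ighm (adjusted p = 0.279), Jchain (0.212) and Cd79b (0.0562) were no longer called, while Igkc (0.0242) and Mzb1 (0.0221) still were. Ighm was also not called without right IFN-alpha-pMC 1 (0.101), 2 (0.0851) or 3 (0.0947), and Jchain without right IFN-alpha-pMC 1 (0.166) or 3 (0.0532) or right control 2 (0.0696). Ms4a1 was called without right IFN-alpha-pMC 3 (0.0486) or right control 3 (0.0276). Without the 3 libraries least like their groups 6 of the 7 were called, where 8175 of 15018 genes tested were called in either direction. With the 2 groups fitted alone 0 were, where 582 of 14404 genes tested were called.

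**Figure D2:**
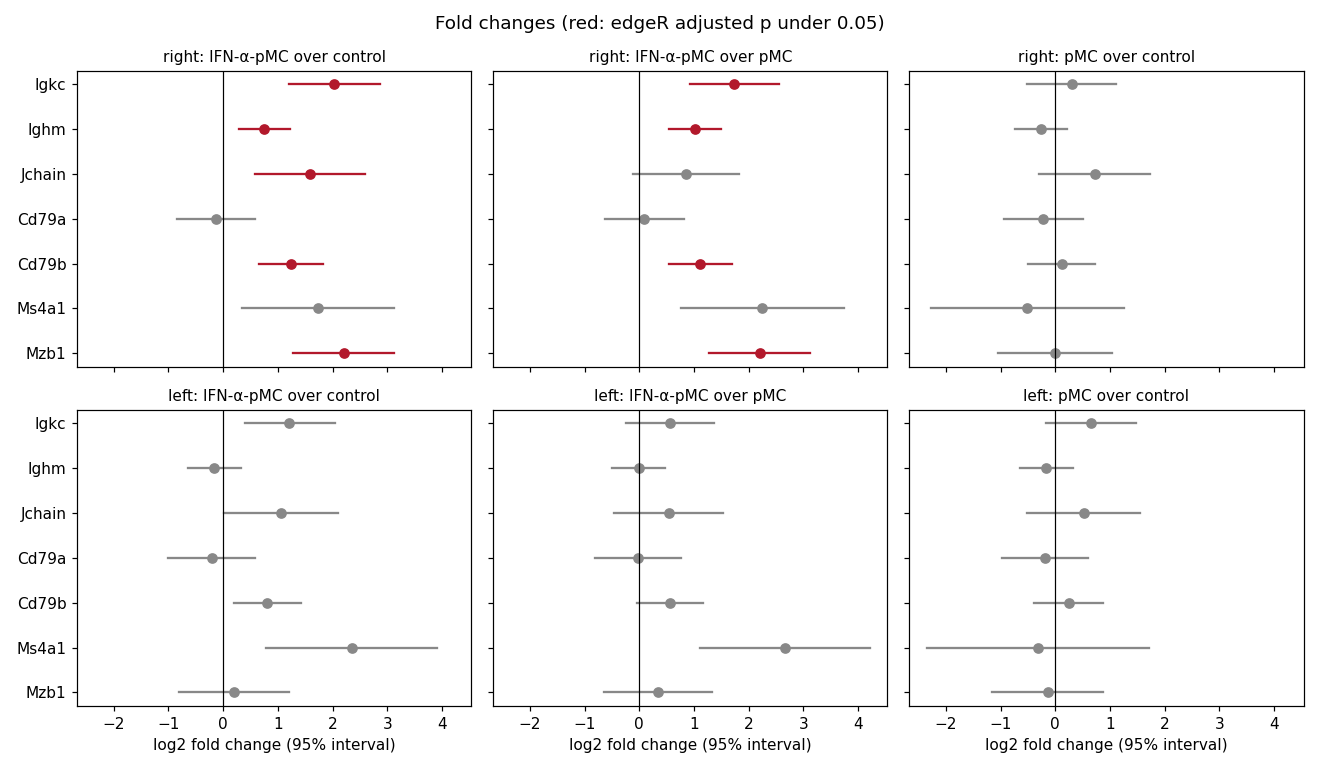
Log2 fold change of each of the 7 genes in 6 comparisons, right tumours above left ones, with 95% intervals from the fit over all genes; red marks an adjusted p under 0.05. The IFN-alpha-pMC against control change on the right is above 1 for Igkc, Jchain, Cd79b, Ms4a1 and Mzb1 and near 0 for Cd79a.

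The comparison with unmarked cells asks what the IFN-alpha mark added. Against right pMC tumours, 4 of the 7 genes were higher in right IFN-alpha-pMC tumours, Igkc, Ighm, Cd79b and Mzb1, and 8.88% of all genes tested were. The median log2 fold change was 1.12 over the 7 genes and -0.04 over all genes. Igkc was at 5.23, 13.4 and 7.51 CPM in the right pMC libraries, all below the 17.4 CPM of the lowest IFN-alpha-pMC library, and differed by 1.74 ± 0.38 (adjusted p = 0.00622). Ighm differed by 1.02 ± 0.23 (adjusted p = 0.00662), with 15.8, 15.2 and 11.7 CPM in right pMC tumours. Cd79b, at 1.27, 1.13 and 1.09 CPM in right pMC tumours, differed by 1.12 ± 0.28 (adjusted p = 0.0128). Mzb1 differed by 2.2 ± 0.44 (adjusted p = 0.00281). Jchain was not called (0.86 ± 0.46, adjusted p = 0.327), since right pMC tumours held 1.65, 3.21 and 2.9 CPM of it. Ms4a1 missed the threshold by little (2.25 ± 0.7, adjusted p = 0.0515), with 32 summed counts against 6. In this comparison 6 of the 7 genes had no overlap between groups, as 17.8% of all genes did. Cd79b was no longer called without right pMC 2 (adjusted p = 0.0542) or right pMC 3 (0.0507).

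Unmarked pMC cells alone gave no detected change in the 7 genes. In right pMC against right control tumours, edgeR called 0 of the 7 and 0% of all genes, 0 members had an unadjusted p under 0.05, and DESeq2 called 0. The log2 fold changes ran from -0.51 for Ms4a1 to 0.73 for Jchain. The 95% interval of Igkc was -0.52 to 1.11, and that of Ighm was -0.74 to 0.22. In left pMC against left control tumours the counts were likewise 0 by edgeR, 0 at an unadjusted p under 0.05 and 0 by DESeq2, with 0% of all genes called. These 2 comparisons and those above share control or pMC libraries.

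In the distant left tumour, no member passed the test against left control tumours, where 6.65% of all genes were called in either direction. Unadjusted p-values were under 0.05 for 4 members, Igkc, Jchain, Cd79b and Ms4a1, and DESeq2 called 1, Igkc (adjusted p = 0.028). Igkc was at 10.9, 14.3 and 13.5 CPM in left IFN-alpha-pMC tumours, against 3.76, 7.95 and 6.81 CPM in left controls. The groups did not overlap, and the log2 difference was 1.21 ± 0.39 (adjusted p = 0.0607). Ighm, by contrast, was at 11.0, 13.7 and 13.7 CPM in left IFN-alpha-pMC tumours and at 11.2, 18.1 and 18.4 CPM in left controls (-0.17 ± 0.23, adjusted p = 0.592).

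Ms4a1 had 10, 8 and 9 counts in left IFN-alpha-pMC tumours, against 1, 3 and 1 counts in left controls. Its summed counts per library total were 4.79 times those of controls (exact 95% interval 1.82 to 15.9), and the fit gave 2.35 ± 0.74 (adjusted p = 0.0585). Cd79b differed by 0.81 ± 0.29 (adjusted p = 0.0767), and Jchain by 1.06 ± 0.49 (adjusted p = 0.133). Mzb1 differed by 0.2 ± 0.48 (adjusted p = 0.773). On plain CPM, Igkc and Ms4a1 had no overlap between the groups, as 17.8% of all genes did, and with library totals scaled by trimmed means Cd79b had none either. With the compared groups fitted alone, Igkc was called (adjusted p = 0.0182), where 3062 of 13889 genes tested were called in either direction. Without the 3 libraries least like their groups Igkc (0.0442), Cd79b (0.0208) and Ms4a1 (0.0478) were called, where 4331 of 15018 genes tested were.

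Against left pMC tumours, edgeR called 0 members in left IFN-alpha-pMC tumours and DESeq2 called 0, where 3.85% of all genes were called in either direction. A single member, Ms4a1, had an unadjusted p under 0.05, with 27 summed counts in left IFN-alpha-pMC tumours against 5 in left pMC tumours (2.66 ± 0.73, adjusted p = 0.0512). On plain CPM it was also the only one without overlap between these groups, as 15.8% of all genes were, and with library totals scaled by trimmed means Igkc did not overlap either.

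Right and left tumours of IFN-alpha-pMC mice differed in Ighm. It averaged 29.4 ± 2.75 CPM on the right and 12.8 ± 1.52 CPM on the left (SD, n = 3 each), a log2 difference of 1.11 ± 0.23 (adjusted p = 0.0137). Of all genes tested, 2.49% were called higher on the right, and Ighm was the only member called, as it was by DESeq2. Unadjusted p-values were under 0.05 for 4 members. Mzb1 averaged 1.13 ± 0.303 CPM on the right and 0.384 ± 0.145 CPM on the left (1.46 ± 0.42, adjusted p = 0.087). Igkc averaged 30.0 ± 11.0 CPM on the right and 12.9 ± 1.76 CPM on the left (1.12 ± 0.38, adjusted p = 0.18). In 5 of the 7 members, Igkc, Ighm, Cd79a, Cd79b and Mzb1, every right library was above every left one, as in 11.9% of all genes. Ms4a1 had 32 summed counts on the right and 27 on the left, a log2 difference of -0.03 with a 95% interval of -1.23 to 1.16. Ighm was no longer called without right IFN-alpha-pMC 3 (adjusted p = 0.0663), left IFN-alpha-pMC 1 (0.0791), left 2 (0.0604) or left 3 (0.0533).

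Right and left were not told apart in these genes without the IFN-alpha mark. In pMC mice and in control mice, edgeR called 0 of the 7 members, 0 had an unadjusted p under 0.05 and DESeq2 called 0, with 0% of all genes called by edgeR. The difference between sides itself was tested as the right effect minus the left effect. For IFN-alpha-pMC against control it called 0 members (DESeq2 0) and 0% of all genes, with unadjusted p under 0.05 for 2 members, Mzb1 (2 ± 0.65, adjusted p = 0.42) and Ighm (0.92 ± 0.32, adjusted p = 0.497). For IFN-alpha-pMC against pMC it called 0 members (DESeq2 0) and 0.391% of all genes, with unadjusted p under 0.05 for 3 members, Mzb1, Ighm and Igkc. For pMC against control it called 0 members by edgeR, 0 by DESeq2 and 0% of all genes, and no member had an unadjusted p under 0.05.

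Ratios between members within a library do not depend on how libraries are scaled. The ratio of Igkc to Ighm counts was 1.24, 0.646 and 1.13 in right IFN-alpha-pMC libraries, against 0.398, 0.486 and 0.341 in right controls. On the left it was 0.988, 1.04 and 0.988 in IFN-alpha-pMC libraries, against 0.335, 0.438 and 0.369 in controls. In both tumours the treated libraries lay above all controls, while pMC libraries overlapped with both groups on the right (0.331 to 0.882) and lay between them on the left (0.571 to 0.823). Cd79b to Cd79a was 3.73, 2.11 and 3.27 in right IFN-alpha-pMC libraries, against 0.947, 1.17 and 1.25 in right controls. In left tumours it was 2.5, 2.83 and 2.67 in IFN-alpha-pMC libraries, against 1.71, 0.867 and 1.73 in controls. The ratio of Igkc to Cd79a did not overlap between treated and control libraries on either side. It was 52.9, 16.8 and 39.0 in right IFN-alpha-pMC libraries, against 5.11, 14.2 and 4.9 in right controls. Right pMC library 2, at 21.8, lay above the lowest of these treated libraries. The ratios of Ighm to Cd79a and of Jchain to Igkc overlapped between IFN-alpha-pMC and control libraries on both sides. Mzb1 to Igkc overlapped on the right, and on the left it was at most 0.0412 in IFN-alpha-pMC libraries and at least 0.0439 in controls.

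**Figure D3:**
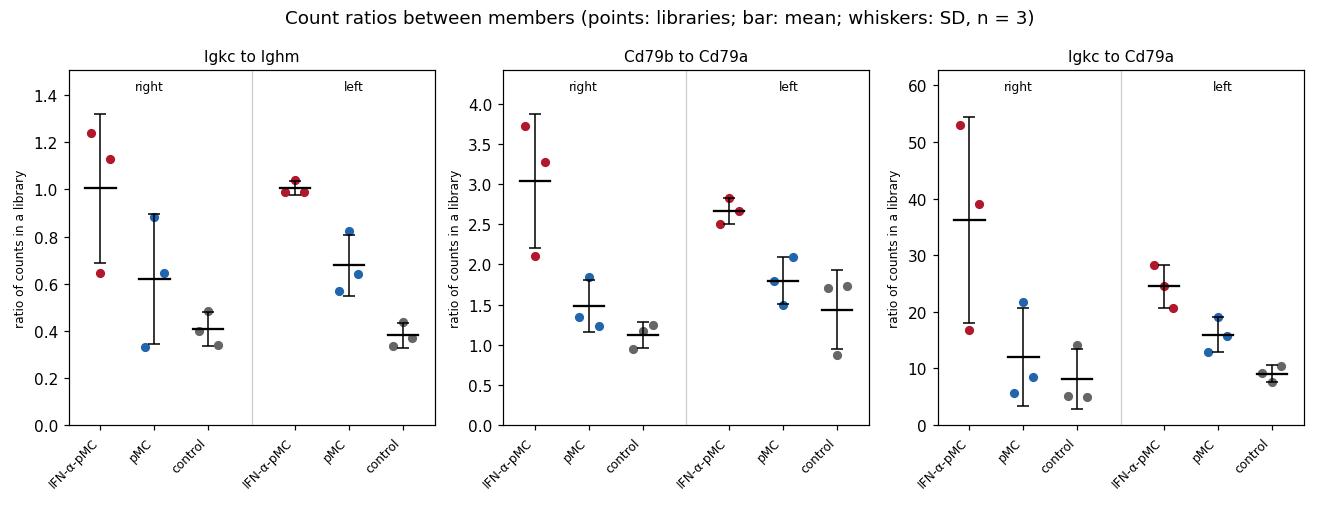
Ratio of counts of 2 members within a library, by group, with the mean and SD of 3 libraries. The Igkc to Ighm and Cd79b to Cd79a ratios of IFN-alpha-pMC tumours lie above those of control tumours on both sides.

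Among the other immunoglobulin constant regions, 4 of the 6 found in the files passed the filter, and Ighd, Igha, Iglc1, Iglc3 and Iglc4 were not analysed here. Ighg2c, the IgG2c heavy chain of C57BL/6 mice, was at 27.4, 16.0 and 47.4 CPM in right IFN-alpha-pMC tumours, against 7.67, 23.2 and 8.51 CPM in right controls. The groups overlapped, since control 2 was above treated library 2, and the log2 difference was 1.24 ± 0.38 (adjusted p = 0.0476). Without right IFN-alpha-pMC 3 it was 0.73 (adjusted p = 0.215), and Ighg2c was also not called without right IFN-alpha-pMC 1 (0.0908), right control 1 (0.266) or right control 3 (0.0718). With the groups fitted alone its adjusted p was 0.405. Against right pMC tumours Ighg2c differed by 1.29 ± 0.38 (adjusted p = 0.0412), and it was not called there without right IFN-alpha-pMC 1 (0.0751) or 3 (0.182), without right pMC 1 (0.162), 2 (0.053) or 3 (0.14), or with the groups fitted alone (0.0544). Ighg1, the IgG1 heavy chain, had 9, 25 and 71 counts in right IFN-alpha-pMC tumours, against 5, 2 and 11 in right controls. The groups overlapped, and Ighg1 differed by 2.32 ± 0.76 (adjusted p = 0.0626). Ighg2b differed by 0.23 ± 0.45 (adjusted p = 0.823).

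Ighg3, the IgG3 heavy chain, was called higher in right IFN-alpha-pMC than in right pMC tumours (4.01 ± 1.23, adjusted p = 0.048) on the strength of 1 library. Right IFN-alpha-pMC libraries 1, 2 and 3 held 9, 11 and 209 counts, against 3, 5 and 3 in right pMC libraries. Without library 3 the log2 difference was 1.43 (adjusted p = 0.513), and without right pMC 1, 2 or 3 the adjusted p of Ighg3 was 0.149, 0.142 or 0.145. On the left, IFN-alpha-pMC library 3 was again the highest, with 57 counts of Ighg3 against 3 and 11 in libraries 1 and 2. Ighg3 made up 9.2% of the heavy chain constant counts in right IFN-alpha-pMC 3 and 7.39% in left IFN-alpha-pMC 3, and at most 1.52% in each of the other 16 libraries. The labels do not say whether a right and a left library of equal number come from the same mouse. Ighe had no count in any library, and Iglc2 summed to 29 counts in right IFN-alpha-pMC tumours against 4 in right controls, 6.8 times per library total (exact 95% interval 2.39 to 26.6).

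Variable segments differ between B cell clones, and their counts were summed with no test. The files held 83 variable segment IDs, of which 58 had a count and 25 had none, with 909 counts in all. Their summed level was 6.36, 3.79 and 5.98 CPM in right IFN-alpha-pMC libraries, against 1.21, 2.88 and 1.54 CPM in right controls, with no overlap. It averaged 1.91 ± 0.592 CPM in right pMC tumours (SD, n = 3). Right IFN-alpha-pMC libraries had counts in 19 to 30 segments, against 13 to 19 in right controls. More segments were seen where more variable segment counts were read, so this number does not measure how many clones were present. Right IFN-alpha-pMC 2, with 66 such counts, and right control 2, with 60, both had 19 segments. Right IFN-alpha-pMC 1 and 3, with 140 counts each, had 29 and 30. On the left the sum was 2.63 ± 0.734 CPM in IFN-alpha-pMC tumours, 2.23 ± 0.604 CPM in pMC tumours and 1.29 ± 0.359 CPM in controls (SD, n = 3 each). Over all libraries the most counted segment, Igkv3-7, held 10.3% of these counts, with 23 counts in right IFN-alpha-pMC, 8 in right pMC and 35 in right control tumours. Reads that align to more than 1 place are not in the counts, so similar segments may be undercounted or split.

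**Figure D4:**
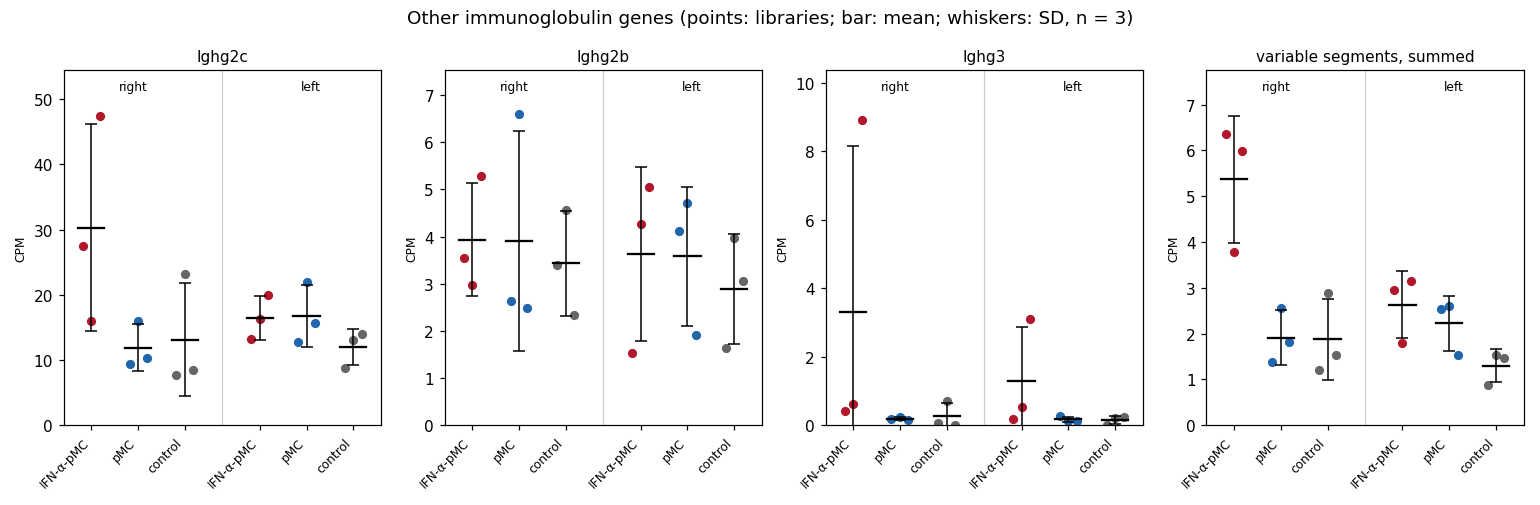
CPM of Ighg2c, Ighg2b and Ighg3 and the summed CPM of 83 variable segments in every library, by group, with the mean and SD of 3 libraries. A single right IFN-alpha-pMC library, at 8.92 CPM, and a single left one, at 3.1 CPM, set the Ighg3 means, while the variable segment sums of right IFN-alpha-pMC tumours lie above all right controls.

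Other genes of the B lineage were described from a list of 25, of which 17 passed the filter. In right IFN-alpha-pMC against right control tumours 8 were higher and 0 lower, with a median log2 fold change of 1.22 beside -0.03 over all genes. Of all genes tested, 8.78% were called higher. The largest was Pou2af1, a coactivator of octamer-bound promoters (2.71 ± 0.8, adjusted p = 0.0371), followed by Cd180, a Toll-like receptor relative (1.9 ± 0.26), Btk, the tyrosine kinase downstream of the receptor (1.42 ± 0.22), and Tnfrsf13b, whose product TACI binds BAFF (1.28 ± 0.25). Pou2af1 had only 50 counts in the treated libraries and 7 in the controls. Right pMC 3, at 0.725 CPM of Pou2af1, lay within the treated range of 0.631 to 0.896 CPM. Ralgps2 (1.22), the adaptor Blnk (0.99), Cd72 (0.97) and Cd37 (0.71) also passed, and the highest adjusted p of the 8 was 0.0381. Cd180, Btk, Blnk, Cd72 and Cd37 are not restricted to B cells, since myeloid cells make them too. The B cell transcription factors Ebf1 (-0.01 ± 0.4, adjusted p = 0.99) and Bach2 (-0.26 ± 0.4, adjusted p = 0.771) did not pass, and Cd22 was at 0.7 ± 0.3 (adjusted p = 0.161). Pax5, the factor that sets B cell identity, summed to 9 counts in right IFN-alpha-pMC tumours against 6 in right controls, 1.41 times per library total (exact 95% interval 0.447 to 4.8). When single libraries were left out, 4 to 10 genes of the list were called, and with the groups fitted alone 3 were.

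Against right pMC tumours 6 of the 17 were higher, Cd180, Btk, Tnfrsf13b, Blnk, Cd72 and Cd37, by 0.81 to 2.26 on the log2 scale. There 8.88% of all genes tested were called higher. In left tumours Btk (0.98 ± 0.22, adjusted p = 0.0228) and Cd72 (0.55 ± 0.14, adjusted p = 0.0393) were higher in IFN-alpha-pMC than in control mice. Of all genes tested, 6.65% were called in that comparison, in either direction. When single libraries were left out, 0 to 1 gene of the list was called there. Between sides of IFN-alpha-pMC mice, Cd180 (1.33 ± 0.26, adjusted p = 0.0103), Blnk (1.13 ± 0.26, adjusted p = 0.0275) and Cd37 (0.89 ± 0.18, adjusted p = 0.0133) were higher on the right. Between these sides 2.49% of all genes tested were called higher on the right. Of the list, 0 to 3 genes were called there when single libraries were left out, and 0 with the groups fitted alone.

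Of 12 plasma cell genes, 9 passed the filter. Beside 8.78% of all genes tested, 4 of the 9 were higher in right IFN-alpha-pMC than in right control tumours. They were the surface receptor Slamf7 (2.48 ± 0.32), the transcription factors Irf4 (1.59 ± 0.33) and Prdm1 (1.47 ± 0.32), and Tent5c (0.88 ± 0.24), with adjusted p of 7.29e-05, 0.00411, 0.00569 and 0.0227. When single libraries were left out 3 to 4 were called, and with the groups fitted alone 1 was. T cells and myeloid cells also make Slamf7, Irf4 and Prdm1. Other genes of the list did not pass: Xbp1 was at 0.39 ± 0.19 (adjusted p = 0.216), Sdc1, which encodes CD138, at -0.2 ± 0.23 (0.674) and Fkbp11 at -0.77 ± 0.41 (0.277). In left tumours Slamf7 was the only one of these 9 called (1.47 ± 0.32, adjusted p = 0.0191), where 6.65% of all genes were called in either direction.

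Genes of B cell help and lymphoid chemokines were 13, of which 12 were in the files and 6 passed the filter. None of these 6 was a chemokine. Cxcl13 had 29 counts in all 18 libraries and Ccl19 had 2, and Ccl21a was not found in the files. In right IFN-alpha-pMC against right control tumours 5 of these were higher and 0 lower, beside 8.78% of all genes tested called higher. They were lymphotoxin beta (Ltb, 3.18 ± 0.46), Cd40 (2.03 ± 0.46), the survival factor BAFF (Tnfsf13b, 1.56 ± 0.48, adjusted p = 0.0487), Il21r (1.46 ± 0.27) and Ccr7 (1.38 ± 0.37). When single libraries were left out 3 to 6 of the list were called, and with the groups fitted alone 1 was. Which cells made the RNA of this list was not tested. Il6 was at 2.2 ± 0.88 (adjusted p = 0.129). In left tumours Il6 (adjusted p = 0.0393) and Cd40 (1.83 ± 0.47, adjusted p = 0.0378) passed. Il6 had 12, 8 and 16 counts in left IFN-alpha-pMC libraries, against 1, 0 and 0 in left controls, so its summed counts per library total were 31.9 times those of controls with an exact 95% interval of 5.37 to 1290. In the left comparison 6.65% of all genes tested were called in either direction. The list had 0 to 1 gene called there when single libraries were left out.

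Markers of other cell types moved with the same groups. Of 14849 genes tested, 1601 were called between right IFN-alpha-pMC and right control tumours, 1303 of them higher. All 12 T cell markers were higher in right IFN-alpha-pMC than in right control tumours, with a median log2 fold change of 2.91, and their summed level was 232 to 299 CPM in right IFN-alpha-pMC, 29.8 to 53.0 in right pMC and 21.9 to 46.1 CPM in right control libraries. In left tumours it was 65.6 to 85.9 CPM in IFN-alpha-pMC and 24.0 to 44.0 CPM in control libraries. Of 10 plasmacytoid dendritic cell markers, 9 were tested in right IFN-alpha-pMC against right control tumours. Of these 4 were higher and 0 lower, with a median log2 fold change of 1.52, and 8 changes were above 0. Bst2, also an interferon-induced gene, was among the 4 (0.85 ± 0.2, adjusted p = 0.00856), while Siglech was at 0.94 ± 0.48 (adjusted p = 0.245). Mean levels in these treated and control tumours were 178 and 10.6 CPM for Ly6c2 and 1.94 and 0.623 for Ccr9. They were 2.79 and 0.872 CPM for Runx2, 1.78 and 0.633 for Klk1 and 60.9 and 75.5 for Tcf4. For Bst2 they were 432 and 243 CPM, for Cox6a2 28.1 and 6.25, for Pacsin1 4.49 and 2.15 and for Siglech 1.78 and 0.953. The sum of this list in right IFN-alpha-pMC tumours is therefore mostly Bst2 and Ly6c2, and does not measure these cells by itself. Plasmacytoid dendritic cells also make Jchain and Mzb1. Skeletal muscle markers summed to 1740 to 3980 CPM in right IFN-alpha-pMC and to 44.3 to 1040 CPM in right control libraries, and right control 2, which was the highest of the controls in Igkc and Ighm, was the lowest in muscle. Erythroid markers were lower in right IFN-alpha-pMC tumours, 5 of 5 tested, at 19.6 to 70.8 CPM against 76.1 to 457 CPM in right controls. For a lymph node in the sample, the marker list held 7 genes found in the files and none passed the filter, their sum was 0.22 to 0.863 CPM over all libraries, and Glycam1 and Chst4, genes of its high endothelial venules, each had 1 count in all 18 libraries. The melanocyte list summed to 31100 to 42200 CPM across libraries. The part of these other cells in the values of the 7 genes was not tested.

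**Figure D5:**
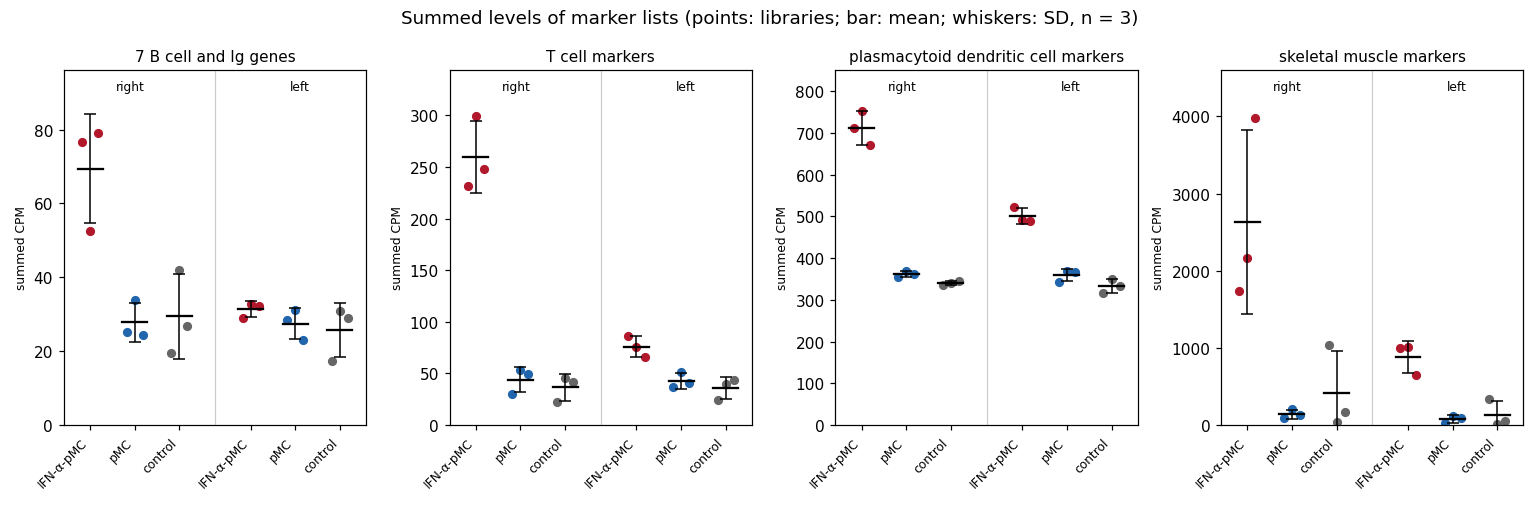
Summed CPM of the 7 B cell and immunoglobulin genes and of the T cell, plasmacytoid dendritic cell and skeletal muscle markers in every library, on linear axes from 0, by group with the mean and SD of 3 libraries. The plasmacytoid dendritic cell sum of right IFN-alpha-pMC tumours is mostly Bst2, at a mean of 432 CPM, and Ly6c2, at 178 CPM. T cell sums of right IFN-alpha-pMC tumours lie at 232 to 299 CPM, above all other groups, and the summed members lie at 52.5 to 79.1 CPM there and at 42.0 CPM or less in every other library.

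Across the 18 libraries, the genes whose profiles were most like the mean of the 7 members were Cd96 (Pearson r = 0.96), Sept1 (0.96), Cd247 (0.95), Ipcef1 (0.95) and Arhgap4 (0.95). Cd96 and Cd247 belong to T cells and natural killer cells. Single members differed in their closest profiles. Igkc was closest to Cd8a (r = 0.94) and Cd79b to Clec4a1 (0.96), a gene of myeloid cells. Jchain was closest to the antiviral gene Oas1b (0.89), and Mzb1 to Dnaaf3 (0.92) and Ltb (0.89). Cd79a had no close profile, with Mthfd2l highest at 0.73. These correlations are over libraries that differ by group, so they carry the group differences and stand as a description. After group means were taken out, the deviations of Igkc and Ighm had r = 0.67, of Igkc and Jchain 0.64, of Cd79a and Cd79b 0.51 and of Igkc and Cd79a -0.05, over 18 libraries.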

How the data were processed

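The deposited values are raw read counts per Ensembl gene ID, 1 file per library, whole numbers with no normalization, as the file contents show. The submitters' processing notes name the build mm9 and, without roles, HTSeq 0.10.0, HISAT2 2.1.0, Trimmomatic 0.36, DESeq2 1.20.0, FastQC, CASAVA 1.8.2 and bcl2fastq, and the library kit was stranded per the labels. Annotation release and counting strand are not given in the sources used, so antisense reads may not have been told apart. Pairs aligned to several places are outside the gene counts. The 5 summary rows of each file held 29.3 to 39.8% of read pairs and entered neither library sizes nor tests.

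Symbols came from GENCODE M21, matched for 32897 IDs. Counts were tested with edgeR 4.0.16 in R 4.3.3: TMM, filterByExpr, 1 mean per group over all 18 libraries (12 residual degrees of freedom), the two-sided quasi-likelihood F test and Benjamini-Hochberg adjustment over 14849 genes, threshold 0.05. SE is the log2 fold change divided by the square root of F. CPM uses library totals. The statistic was tested on simulated counts. Alternatives were DESeq2 1.42.0, other size factors, no filter, the compared groups alone, a replicate block and leaving out libraries.

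The members, lists and libraries left out were chosen with earlier results of these data known. Besides the members, up to 10 genes per list and comparison past the threshold with the largest change were named, with other listed genes as values, and genes among the 5 most alike by Pearson r. Some items are not reported here.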

Additional observations from a re-analysis of the deposited data

How the results depend on the processing

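No called member changed direction under any alternative. Of 1117 refitted member values, 1077 stayed on their side of the threshold, 17 crossed into it and 23 dropped out of it. Most of the 1117 were of members not called in the main fit, which could not drop out. All 23 drops came from the 5 members called in right IFN-alpha-pMC against right control, the 4 called against right pMC and the 1 called between sides. The share that stayed therefore does not measure how stable these calls were. The number of members called in right IFN-alpha-pMC against right control tumours was 5, against 3 with DESeq2-type size factors (Ighm at an adjusted p of 0.054 and Jchain at 0.0519), 0 with the groups fitted alone, and 2 to 6 when single libraries were left out. In the fit of those groups alone, Igkc and Mzb1 were at an adjusted p of 0.0605. The cause was not tested. In right IFN-alpha-pMC against right pMC tumours leaving out single libraries gave 3 to 5 members called. In left IFN-alpha-pMC against left control tumours the number was 0, and it was 1 without a filter, 1 with DESeq2, 1 with the groups fitted alone, 3 without the 3 libraries least like their groups, and 0 whichever single library was left out. In left IFN-alpha-pMC against left pMC tumours it was 1 with DESeq2-type size factors and 1 without the 3 libraries. Between right and left of IFN-alpha-pMC mice it was 1, with 2 without the 3 libraries and 0 to 1 when single libraries were left out.

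The title numbers were checked as pairs. Deviations from group means of right and left libraries of equal number correlated at -0.249 to 0.597, not all above 0.1, so the numbers were not treated as pairs. With 3 libraries a group this check cannot exclude that equal numbers share a mouse. The replicate block was the title number in comparisons within a side, and the title number within each treatment in comparisons of sides. With the replicate block, 4 members were called in right IFN-alpha-pMC against right control tumours (Jchain at an adjusted p of 0.0676), 2 between right and left of IFN-alpha-pMC mice (Igkc at 0.0329) and 1 in the difference between sides of IFN-alpha-pMC against pMC (Ighm at 0.0484). The block moved no other count of members.

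Counts over all genes moved more. For right IFN-alpha-pMC against right control they were 1601, with 582 for the groups alone, 8175 without the 3 libraries and 1090 to 3946 when single libraries were left out. For right IFN-alpha-pMC against right pMC they were 1497, with 4287 without the 3 libraries. For left IFN-alpha-pMC against left control they were 987, with 2771 for DESeq2, 3062 for the groups alone, 464 for the block, 4331 without the 3 libraries and 86 to 494 when single libraries were left out. For left IFN-alpha-pMC against left pMC they were 572, with 1990, 2538, 350, 4142 and 33 to 414 in the same order. For right against left of IFN-alpha-pMC mice they were 375, with 190 for the groups alone, 863 without the 3 libraries and 141 to 360 when single libraries were left out. For right pMC against right control they were 0, with 2 for DESeq2 and 5067 without the 3 libraries. For the difference between sides they were 0 against control, with 82 for DESeq2, 7 without a filter, 20 for the block, 761 without the 3 libraries and 0 to 13 when single libraries were left out. They were 58 against pMC, with 257 for DESeq2, 133 for the block and 0 to 85 when single libraries were left out. Ms4a1, with 84 counts in all, and Mzb1, with 159, are the members most limited by depth.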
